A study of Capra hircus with 3 samples.

Results

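A set of 5 long noncoding RNA (lncRNA) genes of the goat mammary gland, each matched by the study to a conserved noncoding RNA family, were followed through lactation. They were LOC106503053 (MIAT family), LOC102169320 (TUG1), LOC102186225 (PVT1), LOC102168845 (mir-205) and LOC102177511 (adapt33), which makes 5 of the 441 annotated lncRNA genes with deposited values. They were picked by NCBI gene ID from the family matches, a rule that uses no expression value. They account for 7 of the 50041 deposited loci, and where a gene had more than 1 entry its entries were added up. Mammary gland tissue was taken by surgery from Laoshan dairy goats, 4 years old and in the third lactation, on day 10 (early lactation), day 90 (peak lactation) and day 210 (late lactation) after parturition. Total RNA from 5 goats was mixed per stage, and each mixture gave 1 library. The values are FPKM, the number of sequenced fragments scaled by transcript length and by the size of the library. As a single library stands for each stage, there is no spread between replicates to set a difference against, and every ratio below is a description without a test. Read numbers per locus are unknown, so the counting error of each FPKM is unknown too.

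Long noncoding RNAs are spliced and polyadenylated like mRNAs but are not translated into a conserved protein. MIAT (also called Gomafu) is a nuclear RNA with repeated motifs that bind splicing factors. TUG1 is a widely expressed RNA of nucleus and cytoplasm that was reported to bind Polycomb repressive complex 2 (PRC2). PVT1 lies beside MYC, the gene of a growth-promoting transcription factor, in mammalian genomes, and the PVT1 promoter and transcript are known to affect MYC. The mir-205 host transcript carries the hairpin of miR-205, a microRNA of basal epithelial cells that represses the mesenchymal factors ZEB1 and ZEB2. The adapt33 family is named after an RNA induced by oxidants in cultured hamster cells. The match of LOC102177511 to this family was on the strand opposite to its transcript, which holds for no other member.

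The libraries are named here by their labels. The milk secretion genes found by symbol had a lower summed FPKM in the peak-labelled library, 62561, than in the early- and late-labelled libraries, 217140 and 165158. These were 8 of 10 listed genes, and the caseins CSN2 and CSN1S2 were not found. All 8 were at least 2-fold lower in the peak- than in the early-labelled library, beside 6.8% of all protein-coding genes, with a median log2 ratio of -1.57. CSN1S1, the gene of alpha-s1-casein, had 25057, 12017 and 39445 FPKM in the early-, peak- and late-labelled libraries. LALBA, which encodes a subunit of lactose synthase, was listed at 0 in the late-labelled library against 70053 FPKM in the early-labelled library. The milk genes thus did not follow the order that the stage names give, and whether the columns are named rightly was not tested. A single locus without a gene ID, XLOC_043394, took 30.0%, 46.0% and 29.9% of the FPKM sum in these libraries. Which gene it belongs to is not known here, and whether all milk gene RNA was lower in the peak-labelled library was not tested. Among loci reaching 1 FPKM in each of the libraries set side by side, the median log2 ratio was 0.00 for peak over early, -0.00 for late over early and 0.03 for late over peak. Values as deposited were therefore used.

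The 5 lncRNA genes were above the median lncRNA gene in every library. The medians over the 441 genes were 2.28, 2.01 and 2.28 FPKM in the early-, peak- and late-labelled libraries, and the lowest member value, 2.55 FPKM, was that of PVT1 in the late-labelled library. TUG1 and MIAT were the most abundant, with a mean of 41.1 and 29.9 FPKM, which ranks them 16 and 26 among 441. LOC102177511, the mir-205 host and PVT1 followed with 8.78, 7.33 and 3.801 FPKM, at ranks 85, 92 and 147. The order of the 5 genes was the same in the early- and late-labelled libraries, where TUG1 stood first, followed by MIAT, LOC102177511, the mir-205 host and PVT1. In the peak-labelled library MIAT stood above TUG1 and the mir-205 host above LOC102177511. Without replicates, no pair of neighbours in this order can be said to differ beyond its spread.

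**Figure D1:**
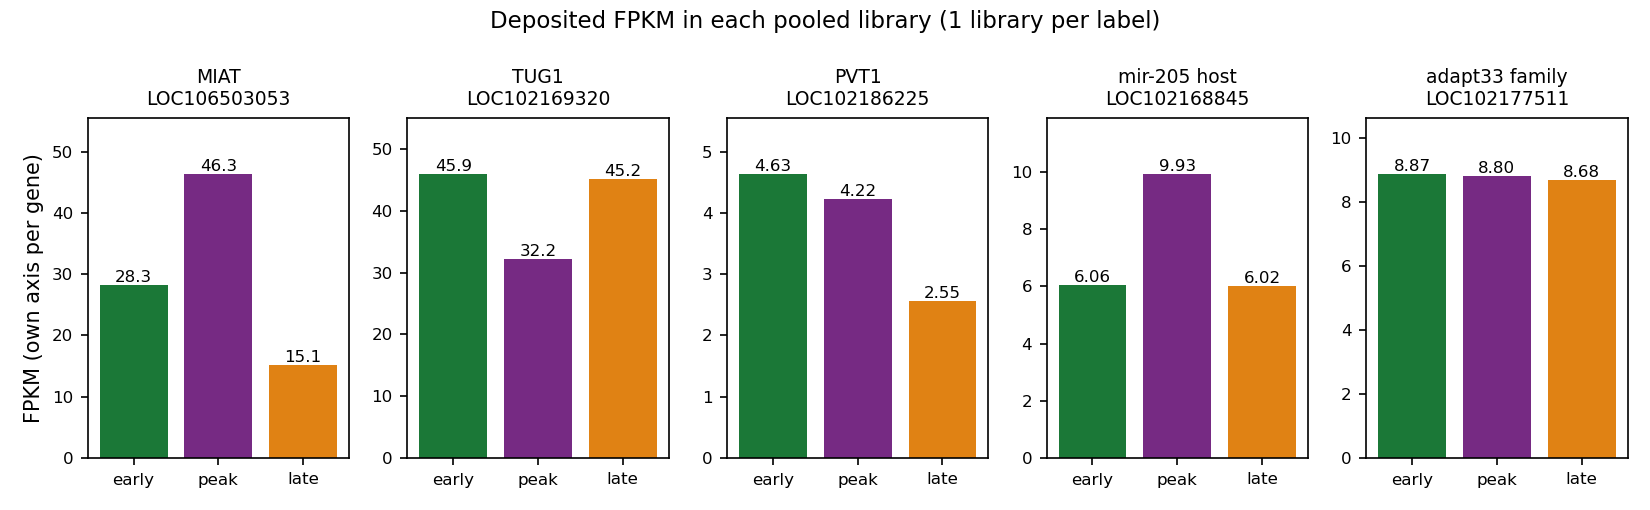
Bars give the deposited FPKM of each lncRNA gene (loci of the gene summed) in the early-, peak- and late-labelled libraries, 1 pooled library per bar, with a separate axis starting at 0 for each gene. MIAT is highest at 46.3 FPKM and lowest at 15.1 FPKM, while LOC102177511 stays between 8.68 and 8.87 FPKM.

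MIAT alone passed 2-fold, and only between the peak- and late-labelled libraries. From early to peak 0 of 5 members passed 2-fold in either direction, beside 38.8% of all lncRNA genes. Between early and late the count was 0 of 5, beside 23.4%. Between peak and late it was 1 of 5, beside 46.7%. In each comparison the share of members past this fold was below that of all lncRNA genes, and nothing is read from so few genes. Another scaling changes these counts. When XLOC_043394 was left out and the remaining FPKM brought to one sum, the log2 ratio of peak over early moved up by 0.52 for every gene and that of late over peak down by 0.39. Then 2 members passed 2-fold in the first comparison and 3 in the last.

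MIAT, LOC106503053, is listed on scaffold NW_005100861.1 from 4926384 to 4938536, a span of 12153 nt. It had 28.3 FPKM in the early-labelled, 46.3 FPKM in the peak-labelled and 15.1 FPKM in the late-labelled library. The peak value was the highest and the late value the lowest, and 86 of 402 lncRNA genes above 0 in all libraries (21.4%) had this order. The log2 ratio was 0.71 for peak over early, -0.90 for late over early and -1.61 for late over peak, a 3.06-fold difference between the highest and lowest library. With XLOC_043394 left out the log2 ratio of peak over early was 1.23, past 2-fold, and that of late over peak -2.00. In the peak-labelled library MIAT ranked 12 of 441 lncRNA genes, against 56 in the late-labelled library. Relative to TUG1 in the same library, a measure that no scaling of a library can change, MIAT was at 0.616, 1.44 and 0.335 in the early-, peak- and late-labelled libraries.

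The MIAT value is the sum of 2 table entries listed at the same coordinates. Reads may have been divided between them, so the values of each and of their sum are uncertain. The annotated entry had 3.88, 8.60 and 2.37 FPKM in the early-, peak- and late-labelled libraries, and the entry assembled by the authors 24.4, 37.7 and 12.8 FPKM. Both had the same order of libraries. Most of the level came from the assembled entry, at 6.30, 4.38 and 5.40 times the annotated one. An unannotated locus, XLOC_034353, lies 312 nt after MIAT and spans 4888 nt. Here and below, before and after a locus mean lower and higher scaffold coordinates, not the direction of transcription. It had 9.45, 17.2 and 5.09 FPKM in the early-, peak- and late-labelled libraries, again highest in peak and lowest in late. MIAT stayed at 2.99, 2.69 and 2.97 times its FPKM, a range of 1.11-fold, while each of them changed over 3-fold. On the ARS1.2 assembly another lncRNA gene, LOC108637846, lies next to LOC106503053. Whether XLOC_034353 belongs to it or to MIAT was not analysed here.

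The nearest coding gene before MIAT was CRYBB1, a lens crystallin gene, 20.0 kb away. It had 1.28, 1.92 and 0.875 FPKM in the early-, peak- and late-labelled libraries. This is the order of MIAT at a level 17.3 to 24.1 times lower. TPST2, a tyrosylprotein sulfotransferase gene 83.03 kb before MIAT, had 5.38, 10.6 and 5.57 FPKM and was also highest in the peak-labelled library. It was not lower in late than in early lactation, with a log2 ratio of 0.05 for late over early. On the other side the next coding loci, MN1 and TIMM10B, were 892 and 939 kb away, with at most 1.202 and 1.96 FPKM. Both were highest in the peak- and lowest in the early-labelled library, with log2 ratios of 1.51 and 2.03 for peak over early. Every coding neighbour of MIAT was thus highest in the peak-labelled library. Of coding genes above 0 in all libraries, 30.3% had the order peak, early, late and 13.1% the order peak, late, early. The early values of MN1 and TIMM10B were low, at 0.421 and 0.479 FPKM. Of 6 unannotated loci within 100 kb before MIAT, 5 were highest in the peak-labelled library and 5 lowest in the late-labelled library, beside 46.2% and 37.7% of all unannotated loci.

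Of 6 T cell markers 5, and of 4 macrophage markers all, had the order of MIAT, beside 30.3% of coding genes above 0 in all libraries. The summed FPKM of 6 T cell markers was 17.6, 44.8 and 6.94 in the early-, peak- and late-labelled libraries, although CD3E was listed at 0 in the first 2 of these. That of 4 macrophage markers was 52.8, 73.7 and 31.7 FPKM. CSF1R, the receptor that macrophages need to survive, had 16.6, 25.6 and 7.55 FPKM. The B and plasma cell markers summed to 284, 494 and 349.4 FPKM, a sum set by JCHAIN, the joining chain of secreted antibodies, with 266, 429 and 337 FPKM. The other 4 genes of that list had the order of MIAT, among them MZB1 with 15.0, 50.8 and 11.4 FPKM. Endothelial markers differed less, between 111 and 135 FPKM. Of 6 fibroblast genes 2 were higher and 4 lower in peak than in early lactation, and all 6 were lower in late than in early. The shares lower were 49.4% and 54.1% of all protein-coding genes. The 2 higher genes, DCN with 131, 254 and 106 FPKM and PDGFRA, thus had the order of MIAT. So did KRT7, KRT18 and FOXA1 of the luminal list and KRT5, TP63 and ITGB4 of the basal and myoepithelial list. The other genes of those lists did not. The order was therefore not particular to immune cell markers. Of 3 adipocyte genes found, all were lower in peak than in early lactation, and 2 were lower and 1, LPL, higher in late than in early. In pooled tissue RNA, fewer cells of a type and less RNA per cell cannot be told apart, and the part of immune cells in the MIAT values was not tested. The coding genes nearest to MIAT in profile, by distance in the log2 ratios of peak over early and late over early among 11087 genes with at least 1 FPKM in all libraries, were CTSZ, NCALD and RUNX1. CTSZ, a lysosomal protease gene, had 31.5, 51.6 and 16.8 FPKM at a distance of 0.0075. NCALD had 3.74, 6.11 and 2.01 FPKM at a distance of 0.0081. RUNX1, a transcription factor gene, had 5.45, 9.02 and 2.94 FPKM at a distance of 0.023. Within a distance of 0.25 lay 101 of the 11087 genes (0.911%), and over 3 libraries such likeness is a description only.

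**Figure D2:**
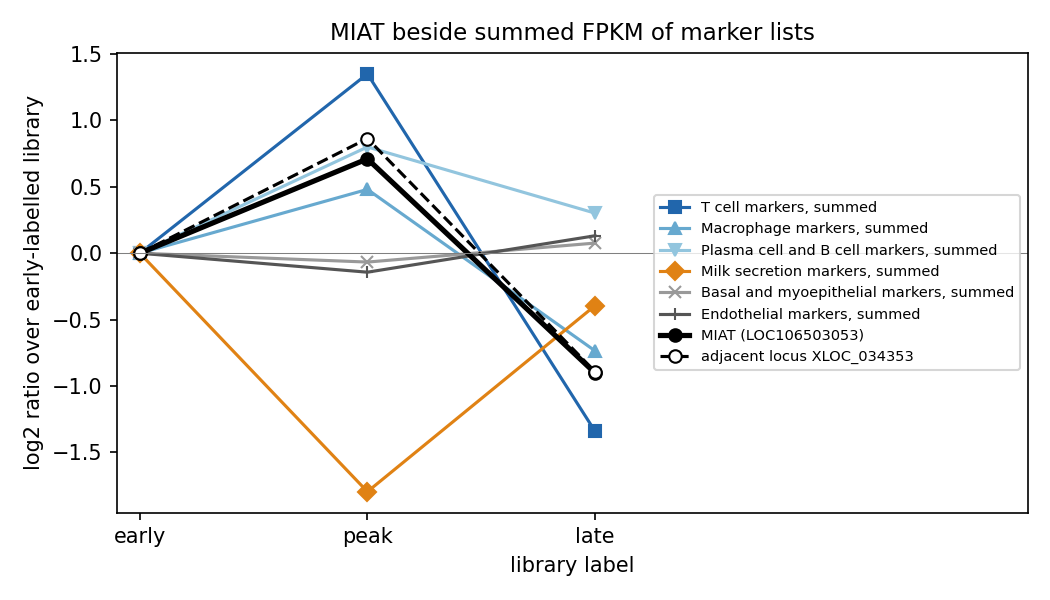
Points give the log2 ratio of each library over the early-labelled library for MIAT, for the unannotated locus next to it, and for the summed FPKM of marker lists. MIAT and its adjacent locus run together and, like T cell and macrophage markers, are highest in the peak- and lowest in the late-labelled library, whereas the milk secretion sum, with LALBA at its listed 0 in the late-labelled library, is lowest in peak.

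TUG1, LOC102169320, is listed on the same scaffold as MIAT, from 8250587 to 8279014. It had 45.9 FPKM in the early-labelled, 32.2 FPKM in the peak-labelled and 45.2 FPKM in the late-labelled library. The early and late values nearly coincided, with a log2 ratio of -0.02, and the peak value was lower, with a log2 ratio of -0.51 over early. The lower peak value depends on scaling, since this log2 ratio was 0.01 when XLOC_043394 was left out. MORC2, which encodes a chromatin-remodelling ATPase, lies only 1.37 kb before TUG1. Its FPKM was 15.5, 9.62 and 15.1 in the early-, peak- and late-labelled libraries, so that TUG1 was at 2.97, 3.35 and 2.98 times its level. LOC102171091, a coding gene 72.0 kb after TUG1, was likewise lowest in peak, with 40.5, 23.6 and 44.7 FPKM. SMTN, the gene of the smooth muscle protein smoothelin, had 5.78, 4.86 and 6.82 FPKM.

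The exception around TUG1 was DUSP18, a phosphatase gene 191 kb away, with its highest value, 2.0 FPKM, in the peak-labelled library. A second lncRNA gene, LOC106503045, is listed at exactly the locus of TUG1. It had 5.68, 1.16 and 4.22 FPKM in the early-, peak- and late-labelled libraries, a log2 ratio of -2.30 for peak over early. Reads of the overlapping genes may have been divided between the entries, so the values of both are uncertain. Coding genes with the profile of TUG1 were common. Within a distance of 0.25 lay 1354 of 11087 (12.2%). The nearest were PEX16, a peroxisome biogenesis gene, PPIB, a cyclophilin gene of the endoplasmic reticulum, and DHRS11. PPIB had 341, 239 and 333 FPKM.

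From early to peak, 0 of the 11 PRC2 genes passed 2-fold, beside 17.7% of all protein-coding genes. EZH2, the catalytic subunit, had 2.88, 1.86 and 2.05 FPKM in the early-, peak- and late-labelled libraries. SUZ12, a core scaffold subunit, had 6.75, 6.60 and 6.73 FPKM. RBBP4 was the single gene of the list past 2-fold in either comparison with the late-labelled library, where it was listed at 0, with 0.807 and 0.633 FPKM in the others. That is 1 of 11 in each, beside 8.71% of protein-coding genes from early to late and 25.9% from peak to late. Of the 4 splicing factors known to bind MIAT, 3 were found by symbol and 0 of them passed 2-fold in any comparison. QKI had 20.6, 25.8 and 19.2 FPKM, SF1 had 16.6, 17.4 and 14.4 FPKM, and SRSF1 had 70.4, 61.3 and 72.4 FPKM.

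PVT1, LOC102186225, is listed on scaffold NW_005100810.1 from 14000504 to 14158506, a span of 158003 nt. It had 4.63 FPKM in the early-labelled, 4.22 FPKM in the peak-labelled and 2.55 FPKM in the late-labelled library. The late value was the lowest, with a log2 ratio of -0.86 over early and -0.73 over peak, both short of 2-fold. With XLOC_043394 left out, the log2 ratio of late over peak was -1.12, past 2-fold, and that of peak over early turned from -0.13 to 0.39, so that the peak-labelled library was then the highest. The lower late value came mainly from the entry assembled by the authors, which had 1.76, 2.07 and 0.404 FPKM. The annotated entry had 2.87, 2.16 and 2.15 FPKM, a log2 ratio of -0.42 for late over early and -0.01 for late over peak. Both entries are listed at the same coordinates. Here too reads may have been divided between them, so the values of each and of their sum are uncertain.

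MYC is the next coding gene after PVT1, 120 kb away. It had 8.79 FPKM in the early-labelled, 6.60 FPKM in the peak-labelled and 4.59 FPKM in the late-labelled library. As deposited, its order of libraries was that of PVT1, with a log2 ratio of -0.94 for late over early against -0.86 for PVT1. PVT1 was at 0.527, 0.640 and 0.556 times MYC in the 3 libraries. Among 1441 pairs of an lncRNA gene and 1 of its nearest coding genes, 6.45% were closer in profile than PVT1 and MYC. This likeness to MYC is that of the summed PVT1 entries, which differed from each other. The log2 ratio of late over early was -0.42 in the annotated and -2.13 in the assembled entry. The assembled entry was highest in the peak-labelled library. The other coding genes near PVT1 differed from the summed PVT1 values in their order of libraries, as deposited. FAM49B and ASAP1, 1612 and 1779 kb before it, were highest in the peak-labelled library with 9.08 and 2.37 FPKM. Like PVT1 they were lowest in the late-labelled library, with log2 ratios of -0.03 and -0.47 for late over early. Theirs was the order of the assembled PVT1 entry. FAM84B, 1211 kb after it, had 60.9, 15.9 and 62.2 FPKM, lowest in the peak-labelled library.

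Within 100 kb after PVT1, on the side of MYC, lay 29 unannotated loci, starting 2.90 kb from PVT1 and reaching 63.2 kb from it. Their median FPKM was 2.06, 1.72 and 1.09 in the early-, peak- and late-labelled libraries. Of these, 23 were highest in the early-labelled and 23 lowest in the late-labelled library, beside 25.6% and 37.7% of all unannotated loci, and 27 were lower in late than in early lactation, beside 53.4% of all unannotated loci. At least 2-fold lower in late than in early lactation were 11 of 29 (37.9%), beside 17.9% of all unannotated loci. In either direction 12 of 29 passed 2-fold between early and late, beside 31.3%. Between early and peak 6 of 29 did, beside 41.9%, and between peak and late 5 of 29, beside 48.2%. The 14 loci nearest to PVT1 had medians of 1.91, 1.76 and 1.25 FPKM, and the 15 farther from it 2.15, 1.58 and 1.08 FPKM. The highest and lowest values of a late-labelled locus were 1.79 and 0.123 FPKM. These loci lie side by side and may be pieces of the same transcripts, so they are not 29 independent measurements.

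**Figure D3:**
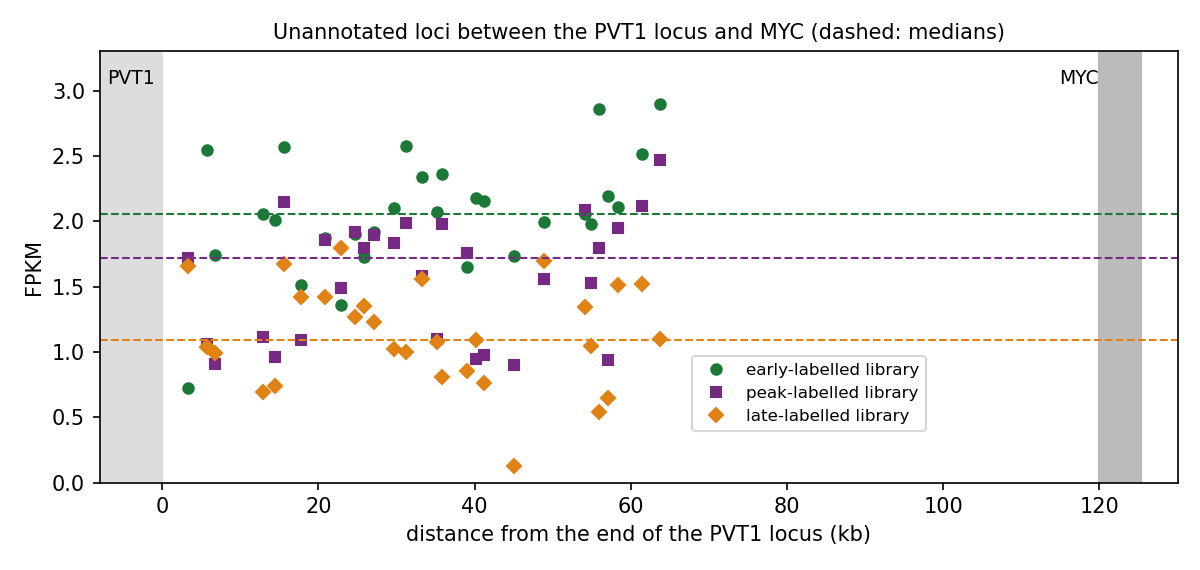
Each point is the FPKM of an unannotated locus at its distance in kb from the end of the PVT1 locus, for the early-, peak- and late-labelled libraries, with shaded bands for PVT1 and MYC. The dashed medians are at 2.06 FPKM in the early-, 1.72 FPKM in the peak- and 1.09 FPKM in the late-labelled library.

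In the MYC network, 10 of 12 genes were found by symbol. Between early and peak 1 of 10 passed 2-fold, beside 17.7% of all protein-coding genes, and between early and late 2 of 10, beside 8.71%. MYCL, a MYC paralog, had 4.03, 1.06 and 1.62 FPKM in the early-, peak- and late-labelled libraries. MGA, a repressor that pairs with MAX, had 1.92, 1.39 and 0.869 FPKM, in the order of MYC. MAX, the partner of MYC on DNA, had 30.2, 29.6 and 37.0 FPKM and was highest in the late-labelled library. Between peak and late 1 of 10 did, beside 25.9%. This was MLXIP, a glucose-responsive relative, with 6.30 and 2.92 FPKM. Near PVT1 in profile were DUSP1, DTNBP1 and DNAJC4. DUSP1, an immediate early phosphatase gene, had 28.1, 24.9 and 15.4 FPKM at a distance of 0.044. Genes like PVT1 were rare, with 68 of 11087 within 0.25 (0.613%).

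The mir-205 host, LOC102168845, is listed on scaffold NW_005100848.1 from 19759879 to 19763182, a span of 3304 nt. It had 6.06 FPKM in the early-labelled, 9.93 FPKM in the peak-labelled and 6.02 FPKM in the late-labelled library. The early and late values differed by a log2 ratio of -0.01 and the peak value stood above both, with a log2 ratio of 0.71 over early. With XLOC_043394 left out the peak value passed 2-fold against both, at a log2 ratio of 1.23 for peak over early and -1.12 for late over peak. Mature miR-205 was not measured in these libraries, and the level of the host transcript does not give it. LAMB3, a laminin gene of the basement membrane 186 kb before it, had 11.02, 11.4 and 11.9 FPKM and lay within a log2 ratio of 0.11 in all comparisons. XLOC_033316, an unannotated locus 3.03 kb before the host, did not share its profile, with 1.84, 1.42 and 0.449 FPKM. HSD11B1, which encodes an enzyme that regenerates cortisol, lies 296 kb before it and had 2.0, 7.64 and 0.886 FPKM. PLXNA2 and CD34, 1217 and 1544 kb after it, ran in different directions. CD34, a marker of vessels and progenitor cells, was highest in the peak-labelled library with 22.6 FPKM.

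TP63, the master transcription factor of basal epithelium, had 4.97, 8.05 and 4.52 FPKM in the early-, peak- and late-labelled libraries. The mir-205 host was at 1.22, 1.23 and 1.33 times TP63, a range of 1.09-fold. TP63 was singled out from the basal list after its values had been seen. KRT5, a basal keratin gene, had 73.2, 96.7 and 56.6 FPKM and was also highest in the peak-labelled library. The whole list of 12 basal and myoepithelial genes did not have that order. Its summed FPKM was 559, 534 and 589, and 6 genes were higher and 6 lower in peak than in early lactation. Past 2-fold in that comparison were ITGB4, CDH3 and OXTR, the first 2 of them higher in peak, which is 3 of 12 beside 17.7% of all protein-coding genes. OXTR, the oxytocin receptor gene of the cells that eject milk, had 3.83, 1.14 and 5.43 FPKM. Of 10 luminal markers 5 were higher and 5 lower in peak than in early lactation. Their sum of 1795, 1222 and 1720 FPKM was set by ELF5, a transcription factor gene of milk-producing cells, with 879, 244 and 875 FPKM. What part cell makeup had in the mir-205 host values was not tested.

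The 10 published targets of miR-205 were all found. Between early and peak 2 of 10 passed 2-fold, LRP1 and E2F1, beside 17.7% of all protein-coding genes, and E2F1 was listed at 0 in the early-labelled library. LRP1, an endocytic receptor gene, had 33.1, 67.3 and 29.1 FPKM in the early-, peak- and late-labelled libraries, so it was highest where the host was highest. ZEB2 had 5.39, 10.7 and 4.10 FPKM, also highest in peak. ZEB1 was low throughout, at 0.739 and 0.388 FPKM and listed at 0 in the late-labelled library. Between peak and late 3 of 10 passed 2-fold, namely ZEB1, ZEB2 and LRP1, each lower in late, beside 25.9%. In all, 6 of 10 targets were lower in peak than in early lactation, beside 49.4% of all protein-coding genes. The coding gene nearest in profile to the host was DERL3, a gene of protein disposal from the endoplasmic reticulum, with 10.6, 17.3 and 10.6 FPKM, followed by ARHGEF6 and AOC2. Within 0.25 of the host lay 500 of 11087 coding genes (4.51%).

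LOC102177511, the gene with the adapt33 match, is listed on scaffold NW_005100697.1 from 12460816 to 12469414. It had 8.87 FPKM in the early-labelled, 8.80 FPKM in the peak-labelled and 8.68 FPKM in the late-labelled library. The highest value was 1.02 times the lowest. None of the 402 lncRNA genes above 0 in all libraries had a smaller range, and their median range was 2.096-fold. This flatness belongs to the values as deposited. With XLOC_043394 left out the log2 ratio of peak over early was 0.51 and that of late over peak -0.41. THAP9, which encodes a protein derived from a DNA transposase, lies 71 nt after LOC102177511 by scaffold coordinate and had 4.24, 4.86 and 4.26 FPKM. LIN54, a DNA-binding subunit of the cell cycle complex DREAM, lies 26.9 kb after it and had 5.41, 4.72 and 5.62 FPKM. SEC31A, a gene of the vesicle coat COPII, lies 2.82 kb before it and had 31.0, 24.8 and 32.2 FPKM. All these neighbours lay within a log2 ratio of 0.38 of no difference in every comparison. SCD5, a fatty acid desaturase gene 172 kb away, had 9.51, 9.90 and 4.95 FPKM. It stood at the 2-fold threshold between peak and late, with a log2 ratio of -1.001, where a pseudocount of 0.1 ended the call. Unannotated loci before LOC102177511 were less flat. Of 6 within 100 kb before it, 5 were past 2-fold between early and peak, all higher in peak. Of 34726 unannotated loci, 8061 were at least 2-fold higher in peak, and 41.9% passed 2-fold in either direction. The 5 loci lay side by side at the far end of that stretch, the farthest 97.4 kb away. Their early values were low, from 0.188 to 0.860 FPKM. They may be pieces of the same transcript, so they are not 5 independent measurements. XLOC_013163, 423 nt before LOC102177511, had 0.910, 0.965 and 1.98 FPKM. The 1 locus after it, XLOC_013165, had 2.59, 2.25 and 2.58 FPKM.

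**Figure D4:**
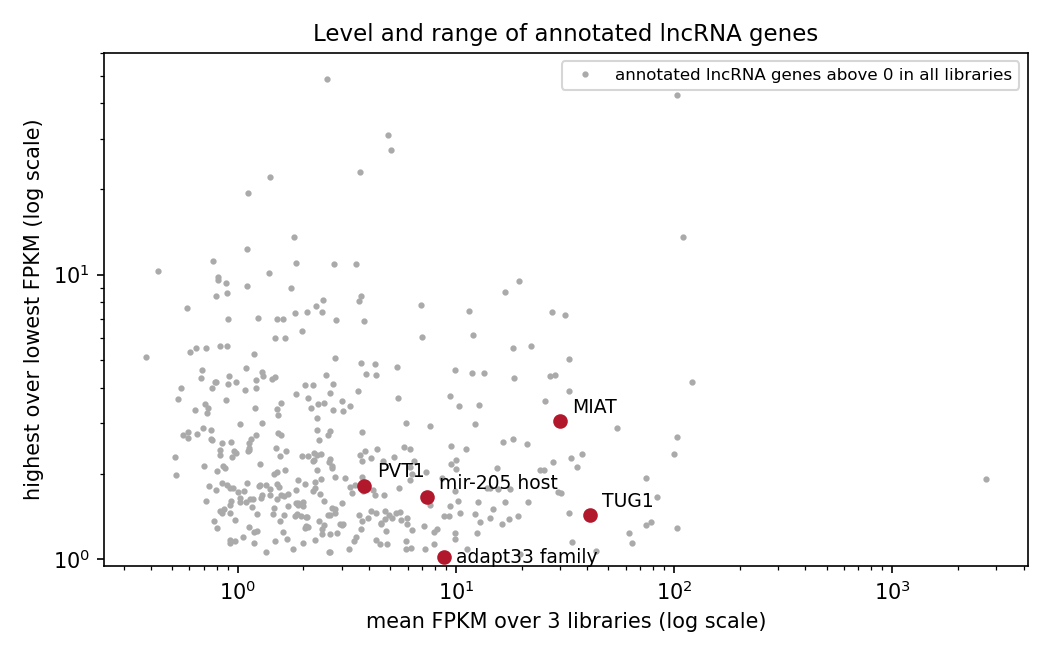
Each point is an annotated lncRNA gene above 0 in all libraries, with its mean FPKM on the horizontal log axis and the ratio of its highest to its lowest library on the vertical log axis. The 5 lncRNA genes are in red, with MIAT at 3.06-fold and the adapt33 family gene at 1.02-fold, and 4 of the 402 genes lie above the upper limit of 60-fold.

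Of 12 oxidative stress genes found by symbol, 10 were higher and 2 lower in peak than in early lactation. Of all protein-coding genes 50.6% were higher. Past 2-fold were 2 of 12, beside 17.7% of all protein-coding genes. SOD2, the mitochondrial superoxide dismutase gene, had 44.5, 135 and 23.6 FPKM in the early-, peak- and late-labelled libraries. SRXN1, the sulfiredoxin gene, had 1.93, 5.99 and 1.53 FPKM. Between peak and late 3 of 12 passed 2-fold, with HMOX1, the haem oxygenase gene, at 7.75 and 2.71 FPKM, beside 25.9%. Between early and late 0 of 12 did, beside 8.71%. Stable coding genes were the most like LOC102177511 in profile, with 2469 of 11087 within a distance of 0.25 (22.3%), led by FLCN, ADNP and AGBL5. Of 248 lncRNA genes that reached 1 FPKM in every library, the nearest to each member were LOC106503821 for MIAT, LOC106502243 for TUG1, LOC102179377 for PVT1, LOC106502060 for the mir-205 host and LOC102181394 for LOC102177511. LOC106502060 had 23.4, 40.4 and 24.4 FPKM in the early-, peak- and late-labelled libraries, at a distance of 0.11 from the mir-205 host.

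Across the 20 neighbouring coding genes, 4 passed 2-fold from early to peak, 1 from early to late and 5 from peak to late. These are shares near those of all protein-coding genes given above. Of 20 neighbours, 14 had the direction of their lncRNA gene for peak over early, 8 for late over early and 14 for late over peak. Over the pairs of all lncRNA genes the shares were 55.1%, 53.6% and 55.5%. The median profile distance was 0.67 over the 20 pairs and 1.16 over 1441 pairs. Distances grow with noise at low FPKM, and the members were more abundant than the median lncRNA gene, so nothing particular to them is read from this. The closest pairs were TUG1 with MORC2 at 0.17 and LOC102177511 with LIN54 and THAP9 at 0.21 each, then the mir-205 host with CD34 at 0.28, PVT1 with MYC at 0.29, TUG1 with LOC102171091 at 0.32, LOC102177511 with SEC31A at 0.32, TUG1 with SMTN at 0.37 and MIAT with CRYBB1 at 0.38. For each lncRNA gene but the mir-205 host, whose nearest neighbour lay 186 kb away, the nearest coding gene on at least 1 side was among these. This list was ended after the distances had been seen, so nothing is read from it. Taking the nearest coding gene on each side only, the median distance was 0.37 for the members and 1.09 for all lncRNA genes.

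**Figure D5:**
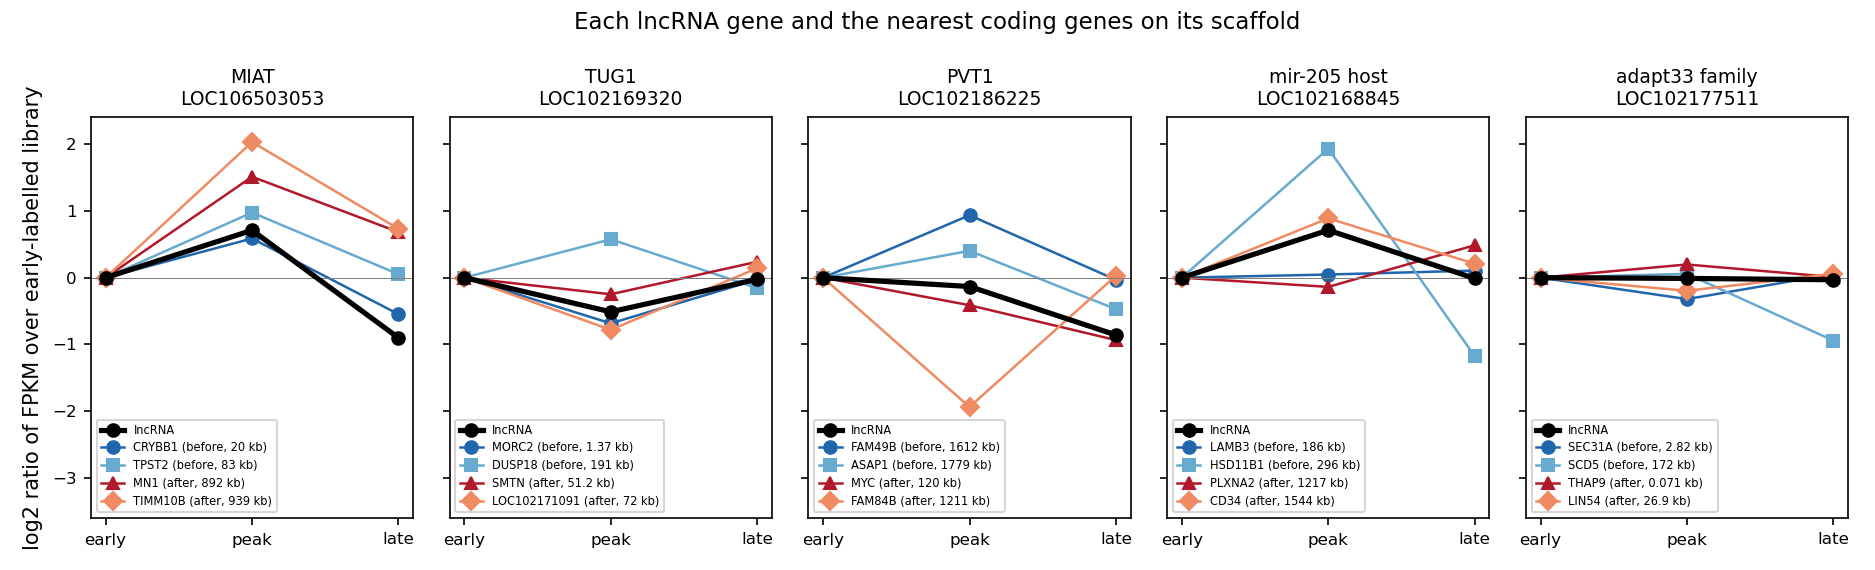
Lines give the log2 ratio of FPKM over the early-labelled library for each lncRNA gene (black) and the nearest coding genes before and after it on its scaffold, with the distance between locus ends in kb. MORC2 runs with TUG1, MYC with PVT1 (entries summed), CRYBB1 with MIAT and CD34, at 1544 kb, with the mir-205 host. FAM84B at 1211 kb runs apart from PVT1, and MN1 and TIMM10B run apart from MIAT. HSD11B1 at 296 kb has the order of the mir-205 host with larger differences, at a log2 ratio of 1.93 against 0.71 for peak over early.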

How the data were processed

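RNA of 5 goats per stage was pooled by the authors into a stranded library for each stage. Reads were trimmed by the authors with Trimmomatic. The authors mapped them with TopHat (TopHat2 2.0.9 in the submitters' processing notes), assembled transcripts with Cufflinks 2.1.1 and Cuffmerge, and computed FPKM with Cuffdiff. Only these FPKM, deposited for 50041 loci, were used. Columns were assigned by the sample labels. The study names more than 1 goat assembly, and the table does not say which its scaffolds belong to. In the ARS1.2 gene table LOC106503053 lies on a chromosome, not on the scaffold listed, so positions hold for the scaffold names of the table only. Whether fragments were counted by strand is not given in the sources used here.

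NCBI gene IDs were matched to the ARS1.2 gene table for symbols and classes (14403 of 15274 loci with a single ID), and loci were summed by ID, with 13023 protein-coding genes as a result. A listed 0 was set to 0.001 in ratios, and genes were called at 2-fold with no test. Neighbours are the 2 nearest coding genes on each side of a locus on its scaffold, by coordinate and without regard to strand. Named genes were the members, these neighbours, list genes past 2-fold, and the 3 coding genes and 1 lncRNA gene nearest in profile. Other list genes were named after their values had been seen. The members and lists were chosen with earlier results of these data known. Alternatives were other pseudocounts, folds, filters and scalings, the highest entry per gene, the nearest gene on each side, and the columns labelled peak and late exchanged. Fold counting and neighbour search were tested on simulated data. Python 3.11.15, numpy 2.4.6, pandas 2.3.3 and matplotlib 3.10.9 were used.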

Additional observations from a re-analysis of the deposited data

How the results depend on the processing

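Read depth per locus is unknown and each stage has a single library, so no replicate could be left out and small differences between libraries cannot be weighed. No paired analysis was possible because only 1 library stands for a stage. Counts are given here in the order early against peak, early against late and peak against late. With XLOC_043394 left out and the rest rescaled, 2 members passed 2-fold in the first and 3 in the last comparison (0 and 1 as deposited), and 9 and 11 of the 20 neighbours (4 and 5 as deposited). This moved 6 of 15 member ratios across 0 and changed 4 calls, while a pseudocount of 0.1 or 1, centring on the median and the highest entry per gene changed 0 calls and 0 signs. At 4-fold, 0 members passed in the last comparison, the neighbours numbered 1, 0 and 1, and of 105 listed genes 5, 6 and 20 passed (32, 17 and 36 at 2-fold). At 1.5-fold, 2, 2 and 3 members, 10, 5 and 14 neighbours, and 52 and 27 listed genes in the first 2 comparisons passed. A pseudocount of 1 left 0 neighbours and 6 listed genes between early and late and 2 neighbours between peak and late. Fewer or more calls follow from these thresholds by construction. With the columns labelled peak and late exchanged, the MIAT ratio of late over peak turned to 1.61, and the first 2 comparisons traded counts, at 1 and 4 neighbours and 17 and 32 listed genes. Taking the nearest coding gene on each side only, 7, 4 and 7 of 10 had the direction of their lncRNA gene. Leaving out genes listed at 0, an alternative chosen after seeing the data, kept the counts of listed genes within 1.5 times. In all, 64 of 93 counts under an alternative stayed within 1.5 times. The causes were not tested.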

Other observations

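Of the deposited values with 7 digits, 95.7%, 99.3% and 97.3% ended in 5 in the early-, peak- and late-labelled libraries, as the mean of 2 values with 1 digit fewer would. No source used here says that values were averaged, and this was not tested.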
